A study of Homo sapiens with 5 samples.

Results

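The human genome holds, outside the tandem arrays of ribosomal RNA (rRNA) genes, copies and fragments of rRNA sequence scattered over most chromosomes. CLIP-Seq regions that fell on such copies are described here. They were taken from 5 deposited region lists as every region on chromosomes 1 to 20, 22 or X whose same-strand RNA type was rRNA or whose same-strand name was an rRNA gene or an rRNA repeat. This gave 259 of 3147 regions, of which 257 qualified by RNA type and 2 by name alone. How far each lies from an array was not checked. Merging regions of the 5 lists that shared at least 1 bp on the same strand gave 101 loci of 2308. The members comprised 61 loci named for 28S rRNA (large subunit), 25 for 18S rRNA (small subunit), 5 for 5.8S rRNA and 10 for 5S rRNA.

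RNA recovered with GFP-(GR)50, in which green fluorescent protein carries 50 glycine-arginine repeats, was measured in HEK-293, a cell line from human embryonic kidney. Poly-GR belongs to the repeat proteins translated from the C9ORF72 repeat expansion of ALS and FTD. Experiment 1 held GFP-(GR)50 replicate 1 and, as its control, cells expressing GFP alone, and used RNase I at 0.04 units/ml. In experiment 2 there were GFP-(GR)50 replicate 2 and, as controls, untransfected cells and cells expressing GFP-(GP)10, which carries 10 glycine-proline repeats, and RNase I was used at 0.02 units/ml. Constructs were delivered with a lipid transfection reagent, cells were crosslinked at 254 nm and 100 mJ/cm2, and all 5 lysates, the untransfected one included, went through a GFP pull-down of 1.5 hours. Sequencing gave single reads of 110 nt. The lists hold bound regions and no expression levels, so the identity of the cells could not be checked on markers.

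In mature ribosomes the large subunit contains 28S, 5.8S and 5S rRNA and the small subunit contains 18S rRNA. The 28S, 18S and 5.8S rRNAs are cut from a common precursor that RNA polymerase I transcribes in the nucleolus from arrays on the short arms of the acrocentric chromosomes, while 5S rRNA is transcribed by RNA polymerase III from an array elsewhere. Most scattered copies are fragments or pseudogenes that carry mutations relative to the arrayed genes. A read from mature rRNA that was aligned to a scattered copy and a read transcribed from that copy cannot be told apart in these files.

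For 2 members listed in both GFP-(GR)50 libraries and in no control, RefSeq (GRCh38.p14) holds the sequence of an adjoining gene's promoter window that overlaps the region, and these are shown as examples of a 28S and an 18S copy. Each is printed 5′ to 3′ on the strand of the region, and capitals mark the bases inside the region of the deposited list, to within 1 base, since the files do not say whether coordinates count from 0 or 1.
28S copy at chr20:30513880-30514160, minus strand, window of LOC105379481: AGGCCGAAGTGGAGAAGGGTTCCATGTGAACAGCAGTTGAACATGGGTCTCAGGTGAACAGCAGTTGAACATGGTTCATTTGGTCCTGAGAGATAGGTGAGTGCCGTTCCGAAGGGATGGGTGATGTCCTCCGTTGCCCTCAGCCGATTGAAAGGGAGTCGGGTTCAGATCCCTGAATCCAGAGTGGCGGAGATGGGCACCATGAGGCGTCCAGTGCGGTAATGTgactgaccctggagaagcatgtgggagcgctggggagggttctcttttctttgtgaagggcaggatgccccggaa
18S copy at chr16:34160097-34160490, plus strand, window of LINC00273: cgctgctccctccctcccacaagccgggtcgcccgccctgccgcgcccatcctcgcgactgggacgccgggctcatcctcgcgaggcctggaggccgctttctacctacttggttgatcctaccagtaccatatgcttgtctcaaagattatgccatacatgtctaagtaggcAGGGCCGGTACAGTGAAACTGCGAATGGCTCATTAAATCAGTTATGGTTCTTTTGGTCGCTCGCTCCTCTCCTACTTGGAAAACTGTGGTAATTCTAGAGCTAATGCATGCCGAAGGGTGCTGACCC
The marked part of the 28S copy was 225 bases with a GC content of 54.7%, and that of the 18S copy was 127 bases with a GC content of 48.8%, against a median of 58.7% over the 35116 promoter windows of the table. The 28S copy had 8.65 and 62.7 reads in GFP-(GR)50 replicates 1 and 2, of which 0 and 44 mapped uniquely. The 18S copy had 24.7 and 55.8 reads in GFP-(GR)50 replicates 1 and 2, of which 1 and 20 mapped uniquely. Neither copy had a region in the GFP, untransfected or GFP-(GP)10 list.

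Reads are given as deposited, with multimapping reads scaled by the authors, beside the uniquely mapped reads of the same region. Listed reads summed to 56588 in GFP-(GR)50 replicate 1 and 30598 in the GFP list, and to 134222 in GFP-(GR)50 replicate 2, 22519 in the untransfected list and 7468 in the GFP-(GP)10 list. No list holds a region below 5 reads, so a locus without a region had fewer than 5 reads or was not called, and is not a locus with 0 reads. A ratio against a list without a region was therefore computed against 5 reads in that library and is given as "at least". An uncalled locus could hold more than 5 reads, so "at least", and "at most" for the 5S copies, hold only where it did not. Each control is a single library and each experiment has 1 GFP-(GR)50 library, so every comparison sets 2 libraries side by side with no replicate check of the control. Intervals are 95% intervals of counting error alone, and they are too narrow for scaled reads, which are not independent. No p-value is given.

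By summed listed reads, the scattered 28S copies weighed more in each GFP-(GR)50 library than in any control, but the lists held different numbers of loci, and where a copy was listed on both sides the difference was smaller. The sums cover listed loci only, so they are shares of the reads in called regions and not fold changes of a fixed set of copies. Reads on 28S copies were 416 per 10000 listed reads over 50 loci in GFP-(GR)50 replicate 1 against 101 over 14 loci in the GFP list, a ratio of 4.13 (3.67 to 4.65). They were 305 per 10000 over 56 loci in GFP-(GR)50 replicate 2 against 60.5 over 10 loci in the untransfected list and 74.5 over 6 loci in the GFP-(GP)10 list, ratios of 5.04 (4.26 to 5.98) and 4.09 (3.12 to 5.28). With 5 reads at every 28S locus that a control list lacked, the lower bounds of the ratios were 2.61 over GFP, 1.87 over untransfected cells and 0.744 over GFP-(GP)10. For GFP-(GP)10 this setting raised the control sum from 55.6 to 306 reads. The bound there lies below 1, so the direction of the sums against GFP-(GP)10 is not settled. Summed over the 14, 10 and 6 28S loci listed on both sides, they were 2.32 (2.05 to 2.63), 2.91 (2.45 to 3.46) and 1.70 (1.29 to 2.20). Much of these sums lay at chr9:76571737-76572035 and chr12:127165907-127166169. They held 384 and 360 of the 1323 reads in GFP-(GR)50 replicate 1, and 25 and 28.7 of the 308 in the GFP list. In GFP-(GR)50 replicate 2 they held 631 and 428 of the 2358 reads set against untransfected cells and of the 1696 set against GFP-(GP)10. Sums without them were not computed.

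The 18S copies had 88.2 reads per 10000 listed reads over 20 loci in GFP-(GR)50 replicate 1 against 192 over 17 loci in the GFP list, a ratio of 0.460 (0.408 to 0.517). In GFP-(GR)50 replicate 2 they had 90.1 per 10000 over 25 loci against 101 over 9 loci in the untransfected list and 71.6 over 6 loci in the GFP-(GP)10 list, ratios of 0.892 (0.776 to 1.03) and 1.26 (0.949 to 1.63). Summed over the 13, 9 and 6 18S loci listed on both sides, the ratios were 0.424 (0.374 to 0.483) over GFP, 0.641 (0.556 to 0.744) over untransfected cells and 0.707 (0.532 to 0.923) over GFP-(GP)10, so at these loci the 18S share was lower in GFP-(GR)50 in each comparison. By share of uniquely mapped reads the 18S order turned round. The 18S copies held 7.30% of the uniquely mapped reads of GFP-(GR)50 replicate 1 against 2.02% of those of the GFP list, and 5.05% in GFP-(GR)50 replicate 2 against 0.953% in the untransfected list and 0.986% in the GFP-(GP)10 list. The 28S copies held 32.9% in GFP-(GR)50 replicate 1 against 0.754% in the GFP list, and 16.6% in GFP-(GR)50 replicate 2 against 0.453% in the untransfected list and 0.854% in the GFP-(GP)10 list. The 5.8S copies had 7.001 and 7.976 reads per 10000 in GFP-(GR)50 replicates 1 and 2 and no region in any control. The 5S copies had 0.884 listed reads per 10000 over 1 locus in GFP-(GR)50 replicate 1 against 15.0 over 7 loci in the GFP list. In GFP-(GR)50 replicate 2 they had 2.57 over 3 loci against 20.4 over 5 loci in the untransfected list and 9.37 over 1 locus in the GFP-(GP)10 list.

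**Figure D1:**
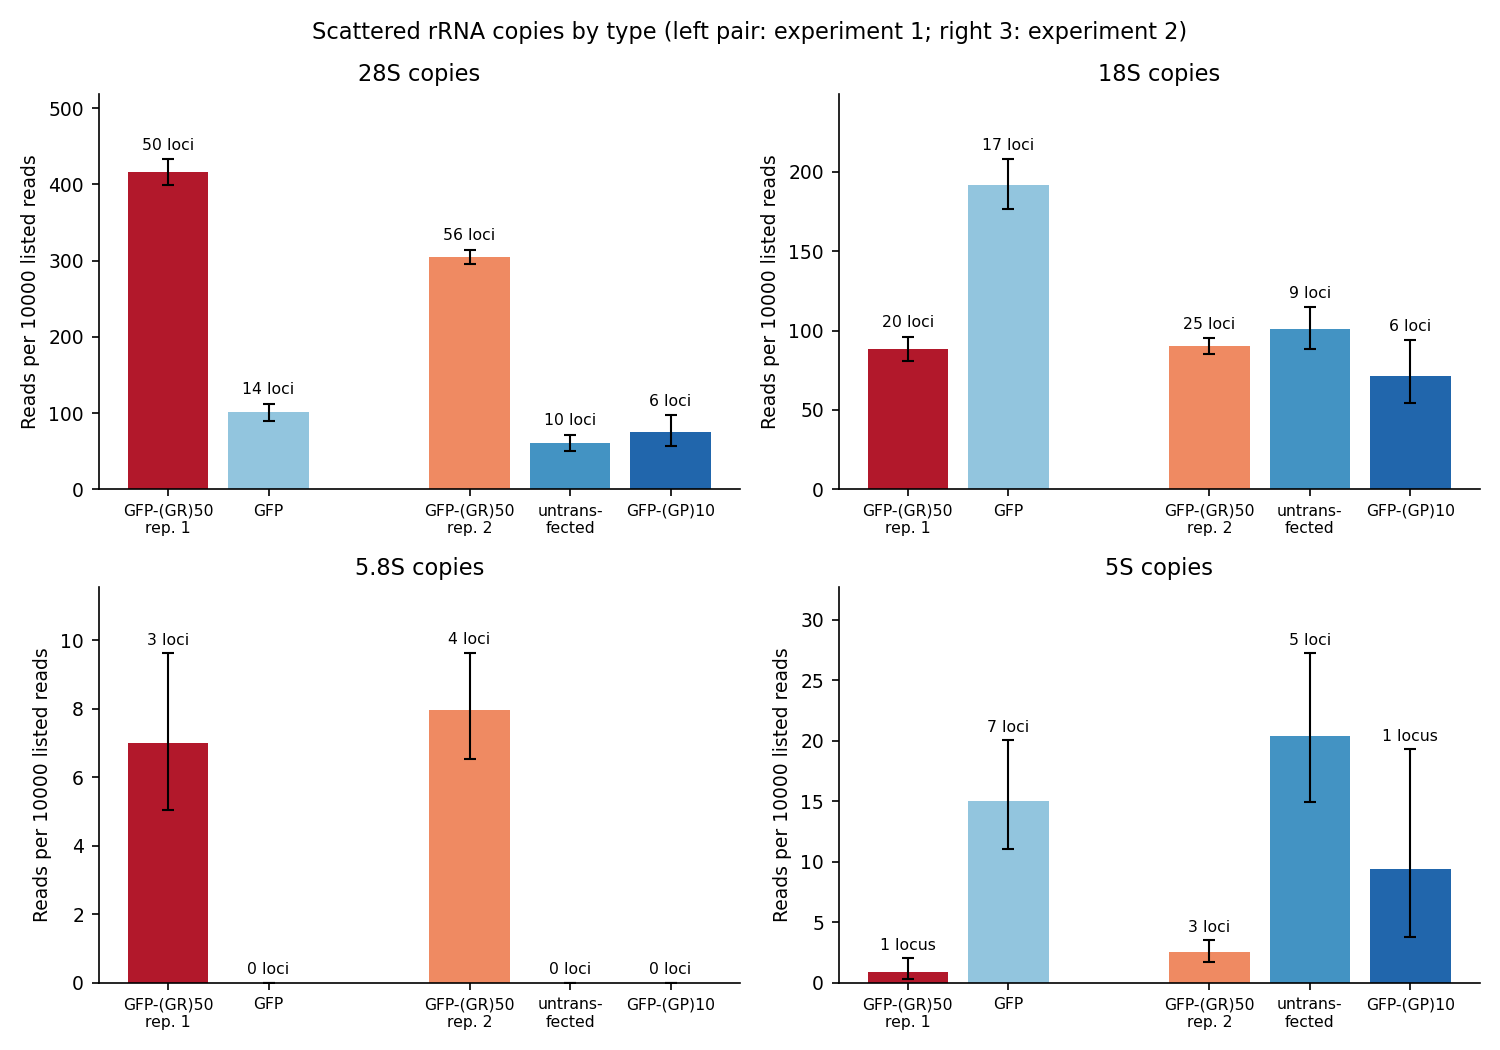
Reads per 10000 listed reads (vertical axis, from 0) on scattered 28S, 18S, 5.8S and 5S copies in each library, with 95% counting intervals and the number of loci with a region above each bar. The 28S bars of both GFP-(GR)50 libraries (416 and 305) stand above those of the GFP, untransfected and GFP-(GP)10 libraries (101, 60.5 and 74.5), and the 5S bars of the GFP-(GR)50 libraries (0.884 and 2.57) stand below; each bar sums listed loci only.

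All types together, the scattered copies took a larger share of each GFP-(GR)50 list than of its controls. By regions GFP-(GR)50 replicate 1 had 80 of 183 (43.7%, 36.4 to 51.2) against 44 of 472 (9.32%, 6.86 to 12.3) in the GFP list, a difference of 34.4 percentage points (26.5 to 42.3). In experiment 2 GFP-(GR)50 replicate 2 had 96 of 805 (11.9%, 9.77 to 14.4) against 26 of 1339 (1.94%, 1.27 to 2.83) in the untransfected list and 13 of 348 (3.74%, 2.00 to 6.30) in the GFP-(GP)10 list, differences of 9.98 (7.65 to 12.5) and 8.19 (4.84 to 11.2) points. The lists differ in length, and the GFP-(GR)50 mean of 27.8% ± 22.5 (SD, n = 2) shows how far the 2 replicates stood apart. By reads, GFP-(GR)50 replicate 1 had 5.12% (4.94 to 5.30) against 3.08% (2.88 to 3.27) in the GFP list, a ratio of 1.66 (1.55 to 1.79). GFP-(GR)50 replicate 2 had 4.05% (3.95 to 4.16) against 1.82% (1.65 to 2.00) in the untransfected list and 1.56% (1.29 to 1.86) in the GFP-(GP)10 list, ratios of 2.23 (2.02 to 2.46) and 2.61 (2.17 to 3.13). With 5 reads at every locus that a control list lacked, the lower bounds of these ratios were 1.33, 1.23 and 0.616. Over loci listed on both sides the ratios were 1.12, 1.39 and 1.15. The GFP-(GR)50 mean by reads was 4.59% ± 0.754 (SD, n = 2).

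Among uniquely mapped reads the shares were further apart. GFP-(GR)50 replicate 1 had 650 of 1603 (40.5%, 38.1 to 43.0) against 219 of 6230 (3.52%, 3.07 to 4.00) in the GFP list, a ratio of 11.5 (10.0 to 13.3). GFP-(GR)50 replicate 2 had 2050 of 9229 (22.2%, 21.4 to 23.1) against 164 of 8606 (1.91%, 1.63 to 2.22) in the untransfected list and 35 of 1522 (2.3%, 1.61 to 3.18) in the GFP-(GP)10 list, ratios of 11.7 (9.97 to 13.6) and 9.66 (6.95 to 13.4). Transfer RNA regions held 68.8% of the uniquely mapped reads of the GFP list, and their part in these ratios was not tested.

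Set against the arrayed genes, the ratios were nearer 1 than by listed reads and lay below 1 by uniquely mapped reads. For every 100 reads in rRNA regions of chromosome 21 and the unplaced contigs, which carry rRNA gene arrays, the scattered copies had 5.57 reads in GFP-(GR)50 replicate 1 against 5.05 in the GFP list, a ratio of 1.102 (1.022 to 1.19). They had 5.66 in GFP-(GR)50 replicate 2 against 4.38 in the untransfected list and 2.78 in the GFP-(GP)10 list, ratios of 1.29 (1.17 to 1.43) and 2.04 (1.69 to 2.46). The GFP-(GR)50 mean was 5.61 ± 0.0696 (SD, n = 2). With uniquely mapped reads in both places the values were 89.4 in GFP-(GR)50 replicate 1 against 102 in the GFP list, a ratio of 0.874, and 86.2 in GFP-(GR)50 replicate 2 against 208 in the untransfected list and 97.2 in the GFP-(GP)10 list, ratios of 0.415 and 0.887. The point values thus fell on the other side of 1 when uniquely mapped reads were counted. The arrayed regions held few such reads, 727 in GFP-(GR)50 replicate 1 against 214 in the GFP list. In experiment 2 they held 2377 in GFP-(GR)50 replicate 2, 79 in the untransfected list and 36 in the GFP-(GP)10 list. No interval was computed for these ratios, so a change of direction is not shown. The rRNA regions of chromosome 21 include a few copies outside its array, which are described near the end. The mean of 5.61 leaves out another contig, listed in experiment 2 alone. With its reads added to the arrays, GFP-(GR)50 replicate 2 had 4.47, and its ratios were 1.29 and 2.04. This alternative was chosen after seeing the data. Of the scattered copies' reads, 22.4% and 37.7% were uniquely mapped in GFP-(GR)50 replicates 1 and 2, against 23.3% in the GFP list, 40.04% in the untransfected list and 30.1% in the GFP-(GP)10 list, while in the arrayed regions the share was 1.40% and 2.47% in GFP-(GR)50 replicates 1 and 2 and between 0.844% and 1.15% in the controls.

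A locus was counted as listed in a library when any region of that list belonged to it. Of the 101 loci, 74 were listed in GFP-(GR)50 replicate 1, 88 in GFP-(GR)50 replicate 2, 38 in the GFP list, 24 in the untransfected list and 13 in the GFP-(GP)10 list. Both GFP-(GR)50 lists shared 67 loci, which were 90.5% of those of replicate 1 and 76.1% of those of replicate 2. Over all loci of the series, 78.8% of those of GFP-(GR)50 replicate 1 and 15.5% of those of GFP-(GR)50 replicate 2 were listed in the other replicate, and 14.9% of loci listed in either were listed in both. Of the 67 shared loci, 39 had no region in any control, beside 43.1% over all loci shared by the GFP-(GR)50 lists. These 39 were 30 of the 28S, 7 of the 18S and 2 of the 5.8S loci. Counts of 18S and 5.8S loci, here and below, include paired copies on chromosomes 14 and 22 that share their reads. Among the 28S loci 45 of 61 were in both GFP-(GR)50 lists and 16 in at least 1 control, among the 18S loci 20 of 25 and 17, and among the 5S loci 0 of 10 and 9. The 6 loci listed in controls alone were all 5S copies. At least 5 uniquely mapped reads in both GFP-(GR)50 libraries were found at 30 loci, 23 of them 28S and 7 of them 18S, and 18 of these 30 had no control region, beside 21 of the 47 loci of any kind that met the same condition (44.7%). Those 47 include the 30 members, and of the 17 others 3 had no control region (17.6%).

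**Figure D2:**
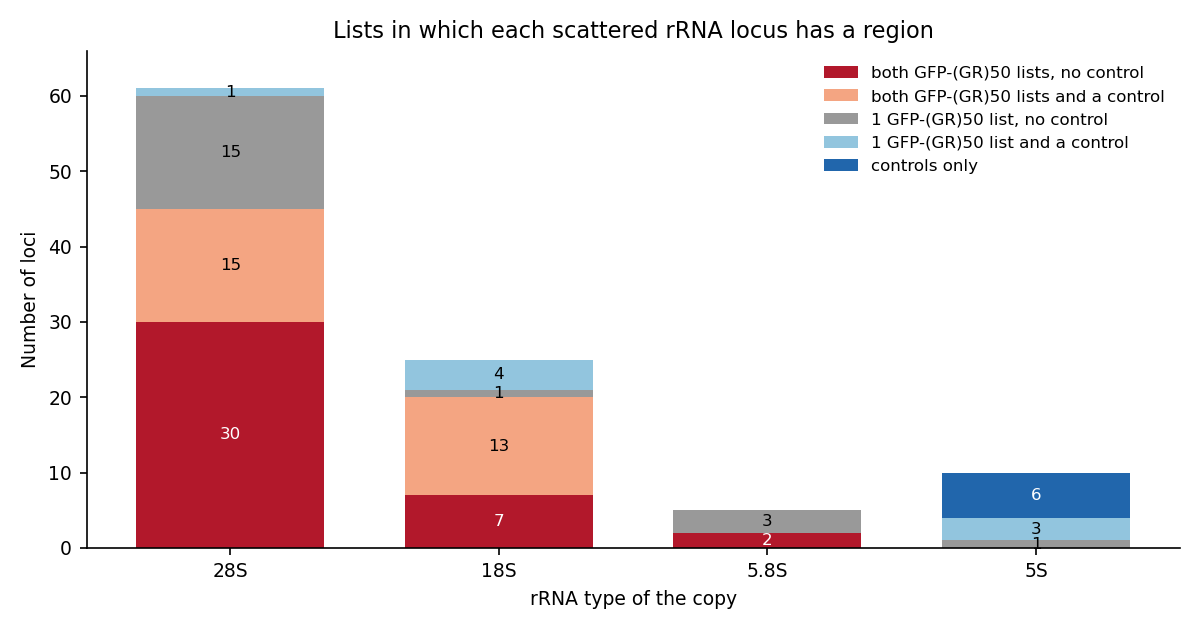
Number of scattered rRNA loci (vertical axis, from 0) by rRNA type and by the lists in which the locus has a region, with both GFP-(GR)50 lists at the base of each bar and controls alone at the top. Of 61 loci named for 28S, 30 were in both GFP-(GR)50 lists but no control, while 6 of 10 loci named for 5S were in controls alone.

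The depth of the lists limits what an unlisted control locus means. At the share a locus had in GFP-(GR)50, a control list would be expected to reach 5 reads for 40 of the 50 28S loci of GFP-(GR)50 replicate 1, and 27 of those 40 were unlisted in the GFP list. Of the 18S loci, 14 of 20 would reach 5 reads and 2 of the 14 were unlisted in the GFP list. In experiment 2, 29 of 56 28S loci and 11 of 25 18S loci of GFP-(GR)50 replicate 2 would reach 5 reads in the untransfected list, of which 19 and 4 were unlisted. For GFP-(GP)10, the shallowest list, 12 of 56 28S loci and 4 of 25 18S loci would reach 5 reads, of which 7 and 1 were unlisted. A locus of GFP-(GR)50 replicate 2 needed 89.9 reads to equal 5 reads of GFP-(GP)10, so absence from that list was not informative for most members. Of all loci of the lists that would reach 5 reads, members included, 36 of 96 (37.5%) were unlisted in the GFP list, 45 of 86 (52.3%) in the untransfected list and 9 of 35 (25.7%) in the GFP-(GP)10 list. Among members these were 31 of 56 (55.4%), 25 of 42 (59.5%) and 8 of 16 (50%). Among loci that are not members they were 5 of 40 (12.5%), 20 of 44 (45.5%) and 1 of 19 (5.26%).

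Locus by locus, a copy was counted as higher when its reads per 10000 listed reads were at least 2-fold those of the control or the control had no region. Of the loci listed in GFP-(GR)50 replicate 1 or GFP, 52 of 85 members were higher, beside 17.1% of all 519 loci. By type these were 41 of 50 for 28S, 7 of 24 for 18S, 3 of 3 for 5.8S and 1 of 8 for 5S. Between GFP-(GR)50 replicate 2 and untransfected cells 73 of 91 members were higher, beside 31.8% of all 1892 loci, with 52 of 56 for 28S and 16 of 25 for 18S. Between GFP-(GR)50 replicate 2 and GFP-(GP)10 the count was 77 of 88, beside 70.5% of all 964 loci, GFP-(GP)10 being the shallowest list. With the control set to 5 reads where it had no region, the counts were 22 of 85 (20 of them 28S) beside 5.01% of all loci, 13 of 91 beside 1.22% and 5 of 88 beside 1.04%, and in both comparisons of experiment 2 each of these members was a 28S copy.

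Counted the other way, as at least 2-fold lower or with no region in GFP-(GR)50, there were 20 of 85 members against GFP, beside 77.6% of all loci (16 of 85, beside 68.2%, with GFP-(GR)50 set to 5 reads where it had no region), 11 of 91 against untransfected cells, beside 67%, and 6 of 88 against GFP-(GP)10, beside 27.5%. Against GFP these were 1 of 50 for 28S, 12 of 24 for 18S and 7 of 8 for 5S. Among loci listed on both sides, 11 of 14 28S loci were above 1 in GFP-(GR)50 replicate 1 over GFP, with a median ratio of 1.50, while 0 of 13 18S loci were, with a median of 0.380, and all 75 loci of the lists had a median of 0.386. For GFP-(GR)50 replicate 2 over untransfected cells 9 of 10 28S loci were above 1 (median 2.46) and 0 of 9 18S loci were (median 0.490), beside a median of 0.126 over 203 loci. Over GFP-(GP)10 the medians were 1.74 for 6 28S loci, 0.584 for 6 18S loci and 0.0931 for all 119 loci. The 18S medians were below 1 in each comparison. They were close to the median of all loci in experiment 1 and above it in experiment 2.

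Among the 28S copies, a few loci carried much of the signal. The 5 with the most reads held 49.2% and 48.1% of 28S reads in GFP-(GR)50 replicates 1 and 2, while the median locus had 19.9 and 32.0 reads. The highest in both was chr9:76571737-76572035 on the plus strand. The deposited annotation places it in an intron of GCNT1, which encodes an enzyme that builds branched O-glycans, while RefSeq names no gene over it. This locus had 384 reads in GFP-(GR)50 replicate 1 against 25 in the GFP list, and 631 in GFP-(GR)50 replicate 2 against 20.2 in the untransfected list and 9.69 in the GFP-(GP)10 list. The ratios of shares were 8.31 (5.54 to 12.4), 5.24 (3.39 to 8.26) and 3.62 (1.88 to 6.55). Of these reads, 35 and 140 mapped uniquely in GFP-(GR)50 replicates 1 and 2, against 5 in the GFP list, 3 in the untransfected list and 3 in the GFP-(GP)10 list.

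The next, chr12:127165907-127166169 on the minus strand, outside introns, had 360 reads in GFP-(GR)50 replicate 1 against 28.7 in the GFP list, and 428 in GFP-(GR)50 replicate 2 against 7.57 in the untransfected list and 5.61 in the GFP-(GP)10 list, ratios of 6.78 (4.60 to 9.80), 9.49 (4.46 to 18.1) and 4.25 (1.77 to 8.88). None of its reads mapped uniquely in any library. In experiment 2 alone, an extra contig outside the named chromosomes held a region of the same width and the same read count beside this locus in each of the 3 lists, so its reads are shared with that copy. A neighbouring 28S locus, chr12:127166322-127166445, had 11.2 and 10.5 reads in GFP-(GR)50 replicates 1 and 2, none uniquely mapped.

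The locus chr5:71850916-71851120 on the plus strand, in no gene of the files, had 139 reads in GFP-(GR)50 replicate 1 against 29.4 in the GFP list, and 301 in GFP-(GR)50 replicate 2 against 30.7 in the untransfected list and 9.05 in the GFP-(GP)10 list. The ratios were 2.56 (1.74 to 3.87), 1.65 (1.13 to 2.36) and 1.85 (0.959 to 3.61), the last interval including 1. It was among the copies with the most uniquely mapped reads, 49 and 153 in GFP-(GR)50 replicates 1 and 2. In an intron of HFM1, which encodes a helicase of meiosis, chr1:91387224-91387592 on the minus strand had 96.1 reads in GFP-(GR)50 replicate 1 against 37.1 in the GFP list, a ratio of 1.40 (0.960 to 2.05) that did not clear counting error. There it had 184 reads in GFP-(GR)50 replicate 2 against 15.3 in the untransfected list and 6.30 in the GFP-(GP)10 list, ratios of 2.03 (1.22 to 3.48) and 1.63 (0.757 to 3.85).

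Other strong 28S copies had no region in one or more controls. In an intron of CTNNA3, which encodes a cell adhesion catenin, chr10:67045452-67045581 on the minus strand had 148 and 181 reads in GFP-(GR)50 replicates 1 and 2, with 11 and 29 uniquely mapped, and no control region. Its ratios were at least 16.0 over GFP, 6.06 over untransfected cells and 2.01 over GFP-(GP)10. The locus chr2:190537926-190538059 on the minus strand had 76.2 and 237 reads in GFP-(GR)50 replicates 1 and 2 and no control region, at least 8.24, 7.96 and 2.64 times the shares of GFP, untransfected cells and GFP-(GP)10. In an intron of SLCO5A1, an organic anion transporter family member, chr8:69690064-69690381 on the minus strand had 68.7 reads in GFP-(GR)50 replicate 1 against 20.9 in the GFP list, and 146 in GFP-(GR)50 replicate 2 against 6.67 in the untransfected list, with no GFP-(GP)10 region. These gave ratios of 1.78 (1.09 to 2.90), 3.68 (1.64 to 7.47) and at least 1.63.

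Uniquely mapped reads picked out further 28S copies. Summed over both GFP-(GR)50 libraries the most, 24 in replicate 1 and 240 in replicate 2, lay at chr4:75886024-75886097 on the plus strand, opposite the phosphatase gene PPEF2. This locus had 55.7 listed reads in GFP-(GR)50 replicate 1 and no GFP region, and 368 in GFP-(GR)50 replicate 2 against 7.61 in the untransfected list, with no GFP-(GP)10 region. The ratios were at least 6.02, 8.12 (3.83 to 15.5) and at least 4.10. The most uniquely mapped reads of replicate 1 alone lay at chr1:42313713-42313750 on the plus strand, opposite the forkhead transcription factor gene FOXJ3, with 126 listed reads in GFP-(GR)50 replicate 1, 78 of them unique, 45.3 in GFP-(GR)50 replicate 2, 41 of them unique, and no control region. Its ratios were at least 13.7 over GFP and 1.52 over untransfected cells. A copy at chr19:24000857-24000967 on the minus strand had 20.4 and 80.4 listed reads in GFP-(GR)50 replicates 1 and 2, 18 and 77 of them unique, and no control region.

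**Figure D3:**
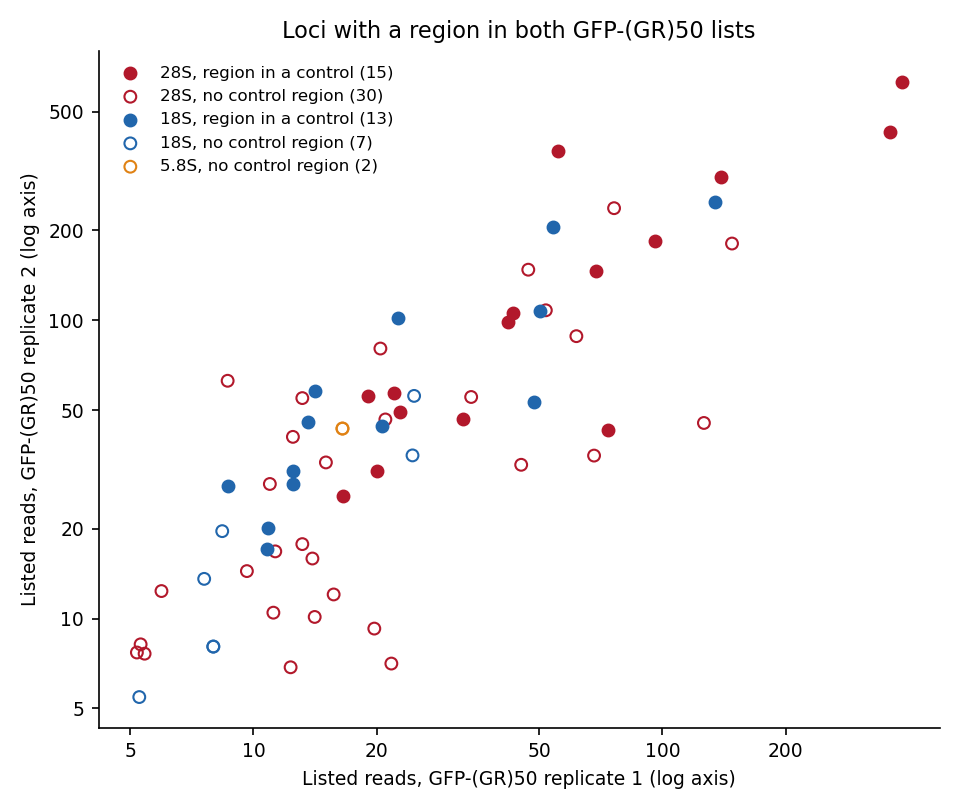
Listed reads of each locus that both GFP-(GR)50 lists hold, replicate 1 on the horizontal and replicate 2 on the vertical axis (both log), coloured by rRNA type; filled points have a region in at least 1 control and open points have none. The 28S loci reach 384 reads in replicate 1 and 631 in replicate 2, and 30 of the 45 are open, against 7 of the 20 18S loci.

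Across the 45 28S loci in both GFP-(GR)50 lists, reads correlated between the replicates with a Spearman rho of 0.768 and a Pearson r of 0.819 on log2 reads, and 13 loci differed by more than 2-fold after scaling to listed reads. Across the 20 shared 18S loci rho was 0.945 and r was 0.897, with 4 beyond 2-fold. These are correlations across loci, which share their libraries and partly their sequence, and are given as a description. The edges of many regions lay close together in the 2 replicates. At 44 28S loci with 1 region in each GFP-(GR)50 list, the starts differed by a median of 3.5 bp and the ends by 2 bp, and at 14 such 18S loci by 15 and 12 bp. Over 60 loci of all types, 33 starts and 35 ends lay within 5 bp, and 21 loci had both within 5 bp. The median differences over these 60 were 4 and 3 bp. Between GFP-(GR)50 replicate 1 and GFP they were 4 and 5 bp over 22 loci. Between GFP-(GR)50 replicate 2 and untransfected cells they were 5 and 7.5 bp over 18 loci, and with GFP-(GP)10 16 and 56 bp over 11 loci.

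Of the 101 loci, 11 had a region in all 5 lists, 6 of them 28S and 5 of them 18S, and were chosen for display on that ground alone. The order of the libraries varied among the 28S copies of this set. At chrX:109054117-109054604 the reads were 43.1 in GFP-(GR)50 replicate 1 against 46 in the GFP list, and 105 in GFP-(GR)50 replicate 2 against 6.10 in the untransfected list and 16.3 in the GFP-(GP)10 list, so both GFP-(GR)50 shares lay below those of GFP and GFP-(GP)10 but exceeded the untransfected one. At chr19:35575787-35575911 they were 32.5 in GFP-(GR)50 replicate 1 against 65.9 in the GFP list, and 46.5 in GFP-(GR)50 replicate 2 against 25.4 in the untransfected list and 8.64 in the GFP-(GP)10 list, and there both GFP-(GR)50 shares lay below all 3 controls. In GFP-(GR)50 replicate 2 the region of that locus ran further and was also named for a lysine transfer RNA. The 4 other 28S copies had both GFP-(GR)50 shares above those of all 3 controls.

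**Figure D4:**
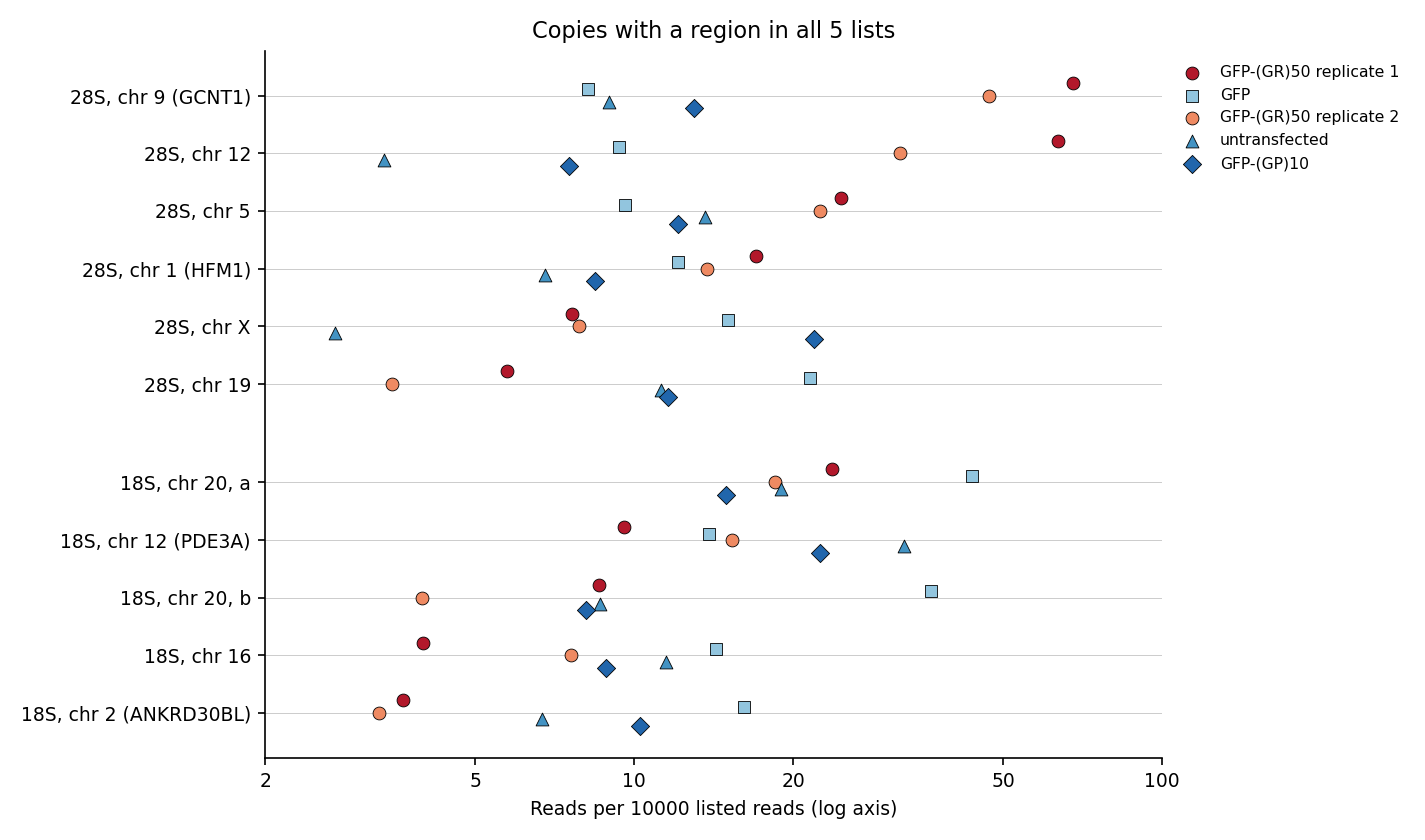
Reads per 10000 listed reads (horizontal axis, log) at the 11 scattered copies with a region in all 5 lists, one row per copy, with a point per library; names give the rRNA type, the chromosome and a host gene where the files name one. The GFP-(GR)50 points (circles) stand right of the control points at the first 4 28S copies and those of GFP-(GR)50 replicate 1 stand left of the GFP points at all 5 18S copies.

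The strongest 18S copy, chr20:29298494-29300132 on the minus strand, was also the widest member at 1638 bp. It had 134 reads in GFP-(GR)50 replicate 1 against 134 in the GFP list, and 248 in GFP-(GR)50 replicate 2 against 42.7 in the untransfected list and 11.1 in the GFP-(GP)10 list. As shares of listed reads the ratios were 0.542 (0.426 to 0.687), 0.974 (0.700 to 1.34) and 1.24 (0.686 to 2.29), so by listed reads it was lower than in the GFP list, and both intervals of experiment 2 included 1. Uniquely mapped reads were 47 and 144 in GFP-(GR)50 replicates 1 and 2, against 15 in the GFP list, 24 in the untransfected list and 5 in the GFP-(GP)10 list. As shares of uniquely mapped reads these ran the other way, with ratios of 12.2, 5.59 and 4.75. In an intron of PDE3A, a cyclic nucleotide phosphodiesterase, chr12:20551424-20551572 had 54.1 reads in GFP-(GR)50 replicate 1 against 42.3 in the GFP list, and 206 in GFP-(GR)50 replicate 2 against 73.2 in the untransfected list and 16.8 in the GFP-(GP)10 list. Its ratios were 0.691 (0.465 to 1.04), 0.471 (0.363 to 0.618) and 0.681 (0.411 to 1.11), all below 1, with the interval clear of 1 against untransfected cells alone.

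Lower shares in GFP-(GR)50 than in the GFP list were seen at 3 more 18S copies listed everywhere. The copy chr20:30487298-30487740 had 48.4 reads in GFP-(GR)50 replicate 1 against 112 in the GFP list, a ratio of 0.234 (0.165 to 0.325), and 53.1 in GFP-(GR)50 replicate 2 against 19.4 in the untransfected list and 6.06 in the GFP-(GP)10 list, ratios of 0.461 (0.277 to 0.790) and 0.488 (0.211 to 1.14). The copy chr16:34160551-34161289 had 22.5 reads in GFP-(GR)50 replicate 1 against 43.7 in the GFP list, a ratio of 0.279 (0.171 to 0.468), and 102 in GFP-(GR)50 replicate 2 against 25.9 in the untransfected list and 6.60 in the GFP-(GP)10 list, ratios of 0.661 (0.428 to 1.01) and 0.859 (0.377 to 1.74). In an intron of ANKRD30BL, chr2:132255501-132255707 had 20.6 reads in GFP-(GR)50 replicate 1 against 49.3 in the GFP list, a ratio of 0.226 (0.139 to 0.386), and 44.1 in GFP-(GR)50 replicate 2 against 15.1 in the untransfected list and 7.64 in the GFP-(GP)10 list, ratios of 0.490 (0.274 to 0.884) and 0.321 (0.144 to 0.650). As shares of uniquely mapped reads the ratios of GFP-(GR)50 replicate 1 to GFP at these 3 copies were 1.55, 1.60 and 1.71. They rest on 2, 7 and 15 uniquely mapped reads against 5, 17 and 34 in the GFP list. No interval was computed, so a reversal at a single copy is not shown.

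Neighbouring stretches of an 18S copy could differ in the lists that held them. The copy chr22:11630027-11630800, which RefSeq names as the 18S pseudogene RNA18SP, had 50.2 reads in GFP-(GR)50 replicate 1 against 42.6 in the GFP list, and 107 in GFP-(GR)50 replicate 2 against 19.0 in the untransfected list, ratios of 0.636 (0.418 to 0.945) and 0.946 (0.580 to 1.54), with no GFP-(GP)10 region and so at least 1.195 times that share. Its neighbour chr22:11629615-11629970, in the same pseudogene, had 24.5 and 35.2 reads in GFP-(GR)50 replicates 1 and 2, 20 and 27 of them uniquely mapped, and no control region, at least 2.65 and 1.18 times the shares of GFP and untransfected cells. The same held on chromosome 16, where the copy whose sequence is printed above, chr16:34160097-34160490, had no control region, at least 2.67 and 1.87 times the shares of GFP and untransfected cells, while chr16:34160551-34161289 downstream of it was listed in all 5 libraries. Conversely, chr7:81333601-81333831 had no region in GFP-(GR)50 replicate 1 against 32.5 reads in the GFP list, 30 of them uniquely mapped. In GFP-(GR)50 replicate 2 it had 27.5 reads against 9.98 in the untransfected list and 5.25 in the GFP-(GP)10 list, ratios of 0.463 (0.228 to 0.967) and 0.292 (0.120 to 0.807). Likewise chr5:175114977-175115132 had no region in GFP-(GR)50 replicate 1 against 5.83 reads in the GFP list, and 24.3 in GFP-(GR)50 replicate 2 against 9.58 in the untransfected list.

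The balance of the subunits can be read within a library, without the listed total, though over all copies it rests on different loci in each list (50 28S and 20 18S loci in GFP-(GR)50 replicate 1, against 14 and 17 in the GFP list). In GFP-(GR)50 replicate 1 the scattered copies held 4.71 28S reads for each 18S read (4.27 to 5.19), against 0.525 (0.456 to 0.603) in the GFP list, a ratio of ratios of 8.98 (7.59 to 10.6). For GFP-(GR)50 replicate 2 the value was 3.38 (3.17 to 3.61), against 0.599 (0.479 to 0.741) in the untransfected list and 1.04 (0.713 to 1.57) in the GFP-(GP)10 list, ratios of ratios of 5.65 (4.53 to 7.06) and 3.25 (2.23 to 4.75). The GFP-(GR)50 mean was 4.05 ± 0.942 (SD, n = 2), above the 3 controls. With uniquely mapped reads the values were 4.51 in GFP-(GR)50 replicate 1 against 0.373 in the GFP list, and 3.29 in GFP-(GR)50 replicate 2 against 0.476 in the untransfected list and 0.867 in the GFP-(GP)10 list.

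Over the 11 copies listed in all 5 libraries, where no locus could drop out, GFP-(GR)50 replicate 1 had a ratio of 3.77 (3.31 to 4.33) against 0.609 (0.515 to 0.719) in the GFP list, and GFP-(GR)50 replicate 2 one of 2.60 (2.37 to 2.85) against 0.596 (0.464 to 0.764) in the untransfected list and 1.15 (0.779 to 1.75) in the GFP-(GP)10 list. By uniquely mapped reads of these copies GFP-(GR)50 replicate 1 had 1.41 (1.03 to 1.94) against 0.408 (0.256 to 0.637) in the GFP list, and GFP-(GR)50 replicate 2 had 1.45 (1.22 to 1.71) against 0.548 (0.314 to 0.932) in the untransfected list and 1.30 (0.527 to 3.31) in the GFP-(GP)10 list. The last comparison, a ratio of 1.11 (0.480 to 2.58) on 23 uniquely mapped GFP-(GP)10 reads in all, could not show a difference at this depth. By listed reads, chr9:76571737-76572035 and chr12:127165907-127166169 held 384 and 360 of the 1055 28S reads of GFP-(GR)50 replicate 1. In GFP-(GR)50 replicate 2 they held 631 and 428 of 1696, and in the GFP list 25 and 28.7 of 232. The ratios of listed reads thus rest largely on those copies, and ratios without them were not computed.

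**Figure D5:**
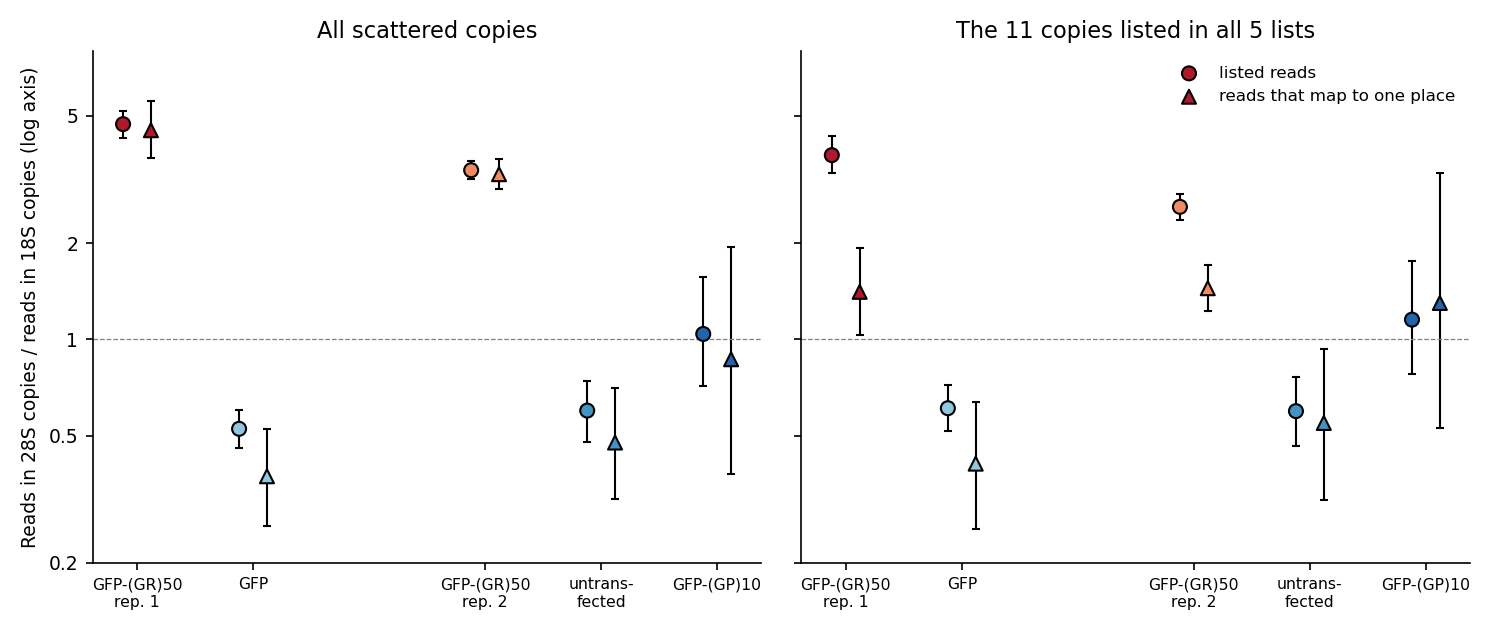
Reads on scattered 28S copies divided by reads on scattered 18S copies (vertical axis, log) in each library, for all copies (left) and for the 11 copies listed in all 5 lists (right), by listed reads (circles) and uniquely mapped reads (triangles), with 95% counting intervals. Both GFP-(GR)50 libraries lie above 1 (4.71 and 3.38 for all copies), GFP and untransfected cells below 1 (0.525 and 0.599), and GFP-(GP)10 near 1 (1.04).

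The 5.8S copies were few. The files name 1 of them RNA5-8SP4, at chr19:24004362-24004507, with 12.1 reads in GFP-(GR)50 replicate 2, 12 of them uniquely mapped, and 1 RNA5-8SP5, at chr2:132253151-132253210 in an intron of ANKRD30BL, with 8.30 reads in GFP-(GR)50 replicate 2, 7 of them uniquely mapped. Both are pseudogenes, and neither had a region in another list. The copies chr14:16057508-16057632 and chr22:11249799-11249923 each had 16.5 and 43.3 reads in GFP-(GR)50 replicates 1 and 2, none uniquely mapped. They are 1 of 4 pairs of copies on chromosomes 14 and 22 in which 7 of 9 read values were equal to 2 decimals, so they share their reads and do not count as separate observations. The last, chr20:30484915-30485040, had 6.60 reads in GFP-(GR)50 replicate 1. With 5 reads at each locus as the limit of a control list, 5.8S reads were at least 1.43-fold higher in GFP-(GR)50 replicate 1 than in the GFP list. This counts both copies of the pair on chromosomes 14 and 22. No fold can be given for GFP-(GR)50 replicate 2.

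The 5S copies were recovered mainly in controls, with nearly all reads uniquely mapped. No 5S locus was listed in both GFP-(GR)50 replicate 1 and GFP, so only a bound can be given. With 5 reads at each 5S locus that GFP-(GR)50 lacked, its share of listed reads was at most 0.470 times that in the GFP list, and in GFP-(GR)50 replicate 2 at most 0.181 times that in the untransfected list and 0.274 times that in the GFP-(GP)10 list. As shares of uniquely mapped reads over listed loci the ratios were 0.338 (0.122 to 0.937), 0.716 (0.455 to 1.13) and 0.777 (0.345 to 1.75), and both intervals of experiment 2 included 1. The most reads lay at chr1:228558315-228558373 on the minus strand, named 5S without a pseudogene, which had no region in GFP-(GR)50 replicate 1 against 5 reads in the GFP list, and 16 reads in GFP-(GR)50 replicate 2 against 21 in the untransfected list and 7 in the GFP-(GP)10 list. Its ratios in experiment 2 were 0.128 (0.0668 to 0.245) and 0.127 (0.0523 to 0.309). How far this locus lies from the array of 5S genes was not checked, so it may not be a scattered copy. Among the 5S pseudogenes, RNA5SP215 on chromosome 6 had no region in GFP-(GR)50 replicate 1 against 7 reads in the GFP list, and 13.5 in GFP-(GR)50 replicate 2 against 8 in the untransfected list. RNA5SP150 on chromosome 3 had no region in GFP-(GR)50 replicate 1 against 9 reads in the GFP list, and 5 in GFP-(GR)50 replicate 2. RNA5SP199 on chromosome 5 was the 1 copy of GFP-(GR)50 replicate 1, with 5 reads. RNA5SP202, RNA5SP99 and RNA5SP161 were listed in GFP alone with 10, 5 and 5 reads, RNA5SP71 and RNA5SP338 in the untransfected list alone with 6.92 and 5 reads, and RNA5SP74 in both with 5 reads each. At 5 to 21 reads these loci sit near the minimum of the lists, and an unlisted one in GFP-(GR)50 could hold a few reads.

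The types also differed in how the copies lie in the genome. Within 10 kb on the same strand the 101 loci formed 70 clusters, of which 57 held a single locus and 13 held the other 44 loci, with up to 5 each. Of the 61 28S loci 41 stood alone, as did all 10 5S loci, 6 of 25 18S loci and 0 of 5 5.8S loci. The loci spread over 20 chromosomes and were 28 to 1638 bp wide, with a median of 132 bp. By the annotation of the files, 24 loci lay in an intron of a gene on the same strand (15 of 61 28S and 5 of 25 18S loci), 11 lay opposite an intron and not in one, all of them 28S, and 66 did neither. RefSeq names a pseudogene over 10 of 61 28S loci, 20 of 25 18S loci, 5 of 5 5.8S loci and 9 of 10 5S loci, so most 28S members are known to the annotation only as repeat copies.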

How the data were processed

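CLIP-Seq region lists of 5 HEK-293 libraries were analysed, 1 per library. The submitters' processing notes name the builds GRCh38.p13 and hg38 and the tools featureCounts 2.0.2, bedtools 2.30.0, UMI-tools 1.1.2 and Novoalign 4.03.03. Their roles and the region caller were not given in the sources used here. Per the file headers, the deposited values are the count of uniquely mapped reads and an expected count (estimated count) in which the authors scaled multimapping reads, by a factor not given in the sources used here. In GFP-(GR)50 replicate 2, 6 of the unique values are not whole, none of them in a member. Neither unit is normalised for depth, and no library depth was known.

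Loci were formed, shares computed and exact Clopper-Pearson 95% intervals taken with Python 3.11.15, pandas 2.3.3, numpy 2.4.6 and scipy 1.17.1, on reads rounded to whole numbers. Ratios of shares have log-scale (Katz) intervals and ratios of ratios Woolf intervals. The merging and fold rules were tested on simulated loci whose reads lay above the minimum of the lists. The rule for a control without a region, shared reads and the scaling to listed reads were not tested there. Named by rule, per type, were up to 8 loci in both GFP-(GR)50 lists by the lower share, 5 by uniquely mapped reads, 5 listed in a control but not in its GFP-(GR)50 list, and every 5.8S and 5S gene name; further copies are named where the text says why. Members and lists were chosen with earlier results of these data known. Nothing in the labels says that the libraries came from separate cultures. Alternatives were the minimum reads, the read column, the denominator, the annotation, the list length, the overlap and the fold.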

Additional observations from a re-analysis of the deposited data

Results flagged for a closer look

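Chromosome 21 was not among the chromosomes from which members were taken. Outside its rRNA gene array it held copies of rRNA that were listed in GFP-(GR)50 and in no control. These signals lie outside the members, but their reads are counted in the rRNA regions of chromosome 21 that the scattered copies were set against. A 28S copy at chr21:14084968-14085121 had 8.05 reads in GFP-(GR)50 replicate 1, 7 of them uniquely mapped, and an overlapping region, chr21:14085065-14085126, had 68.6 reads in GFP-(GR)50 replicate 2, 67 of them uniquely mapped. An 18S copy at chr21:25855774-25855836 had 6.97 reads in GFP-(GR)50 replicate 2, 4 of them uniquely mapped. An absent control region means fewer than 5 reads or no call.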

How the results depend on the processing

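No paired analysis was possible because each control has 1 library and no result comes from a test. Of 77 alternative values, 23 moved, 4 turned round and 50 did neither, where a ratio or difference moved on leaving its 95% counting interval, a count on changing by over 1.5 times and a GFP-(GR)50 mean on changing by over 1 SD. With 2 replicates that SD is wide, so the last limit shows no stability. The share of reads, as the ratio of GFP-(GR)50 to control (main values 1.66, 2.23 and 2.61 for GFP, untransfected and GFP-(GP)10), was 11.5, 11.7 and 9.66 by uniquely mapped reads and 20.8, 5.17 and 4.54 over listed reads outside rRNA. Another contig, not the one paired with the chromosome 12 locus, held many listed reads of experiment 2. They were 25749 in GFP-(GR)50 replicate 2, 2461 in the untransfected list and 1115 in the GFP-(GP)10 list, and 0 in both lists of experiment 1. Over listed reads outside both rRNA and that contig, an alternative chosen after seeing the data, the ratio was 20.8, 19.6 and 13.8. With at least 10 reads per region it was 1.99 against untransfected cells and 5.31 against GFP-(GP)10, and without 5S copies 2.49 against untransfected cells. Chosen after seeing the data, too, 5 reads at each locus a control lacked gave lower bounds of 1.33, 1.23 and 0.616, the last counted above as turned round. Loci listed on both sides gave 1.12, 1.39 and 1.15. Reads per 100 array reads turned round by uniquely mapped reads, to 0.874, 0.415 and 0.887, with no interval computed. The difference in region shares was 24.9 and 26.4 points with at least 10 reads per region against untransfected cells and GFP-(GP)10, and 20.7 points against GFP-(GP)10 with lists of equal length. The loci counted as higher were 22, 13 and 5 with unlisted controls set to 5 reads, also chosen after seeing the data, against 52, 73 and 77; by construction this setting leaves out low loci. The causes of the other moves were not tested. Leaving out either GFP-(GR)50 replicate, the remaining value ran from 11.9% to 43.7% of regions, from 4.05% to 5.12% of reads and from 5.57 to 5.66 per 100 array reads. With the contig that held 25749 reads added to the arrays, GFP-(GR)50 replicate 2 had 4.47 per 100. The lists' minimum of 5 reads, the 7468 listed reads of GFP-(GP)10 and single control libraries limit what can be read from an unlisted locus.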
